A study of Homo sapiens with 6 samples.

Results

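The 8 genes described here encode death receptors at the cell surface, caspases, which are the proteases of cell death, and a caspase-like regulator. They are the receptor genes FAS, TNFRSF10A and TNFRSF10B, the initiator caspase genes CASP8, CASP9 and CASP2, the regulator gene CFLAR, and the executioner caspase gene CASP6. They were taken by gene symbol from the 58302 genes of the deposited count table, and all 8 were among the 15572 genes with enough counts to be tested. Every member had at least 41 counts in each library.

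RNA was sequenced in 3 control and 3 CYT-treated libraries. The cells were MDA-MB-231-DR, a drug-resistant derivative of MDA-MB-231, an established line from a breast cancer without hormone receptors or HER2 amplification (triple-negative). CYT is cyperotundone, a compound of the sedge Cyperus rotundus that the study combined with doxorubicin. The study's methods name medium with a low concentration of doxorubicin for culture of the DR cells, and neither whether it was present during treatment, nor the CYT dose, nor the hours of treatment of these libraries is given in the sources used here. All 6 libraries analysed here are of this resistant line, and parental cells were not analysed here, so the values compare treated with untreated resistant cells and not resistant with sensitive cells. The labels number the replicates but do not say that they were separate cultures, and the methods speak of independent experiments in general without naming the sequencing, so the p-values measure the spread between these libraries, which may be technical.

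Death receptors of the TNF receptor family bind a ligand outside the cell and recruit the adaptor FADD and procaspase-8 to a death domain inside it, and the complex switches caspase-8 on. Caspase-9 is switched on along a separate route, in the apoptosome that APAF1 forms with cytochrome c released from mitochondria, and both routes end in executioner caspases that cut cellular proteins. MDA-MB-231 cells are widely used to study killing by TRAIL, the ligand of TNFRSF10A and TNFRSF10B, and transcription of TNFRSF10B is known to be induced by DNA damage and endoplasmic reticulum stress.

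Members differ at their catalytic site, and this is visible in the coding sequence. The stretches shown are 45 bases of the sense strand around the active-site codon, in GENCODE release 29 on GRCh38, and the capitals mark the codon at the active-site position. They are given because they separate the caspases from CFLAR, which is built like caspase-8 but lacks the cysteine that cuts proteins. The CASP8 stretch lies within 1 coding exon at chr2:201285070-201285114 on the plus strand, and the CFLAR stretch within 1 coding exon at chr2:201160695-201160739 on the same strand. The stretches of CASP9, CASP2 and CASP6 are each interrupted by an intron in the genome.
CASP8: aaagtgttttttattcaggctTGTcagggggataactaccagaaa
CASP9: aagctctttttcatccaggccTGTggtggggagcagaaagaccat
CASP2: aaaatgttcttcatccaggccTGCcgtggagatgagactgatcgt
CASP6: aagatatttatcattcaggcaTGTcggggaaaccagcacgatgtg
CFLAR: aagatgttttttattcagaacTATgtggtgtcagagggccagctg
A cysteine codon, TGT or TGC, stands at the marked position in the 4 caspases, and a tyrosine codon, TAT, stands in the stretch of CFLAR that matched CASP8 best without gaps.

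Of the 8 members, TNFRSF10B alone rose with CYT in edgeR's quasi-likelihood test at an adjusted p under 0.05, none fell, and 7 did not pass. At an unadjusted p under 0.05 the count was 1 higher and 1 lower, and DESeq2 called 1 higher and 0 lower. With the replicate number as a block, CASP9 passed as lower, so that 1 member rose and 1 fell, while 39.9% of all tested genes passed in that fit. Without the block 28.6% of all tested genes passed, 15.7% higher in CYT and 12.9% lower. The median log2 fold change of the members was 0.14 and that of all tested genes 0.0064. Libraries of the 2 groups did not overlap in CPM (counts scaled to library size, TMM-normalized) for TNFRSF10B and CASP9, 2 of the 8 members, whereas 46.1% of all tested genes had groups that did not overlap. The share of members that passed was thus below the share of all genes. Total counts were 14050849 to 17770102 in control and 13056270 to 14106017 in CYT libraries, the biological coefficient of variation was 37.5%, and replicate 2 of CYT was least like its group, with correlations of log2 CPM of 0.904 and 0.905 to the other CYT libraries against 0.953 to 0.971 in the remaining same-group pairs.

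**Figure D1:**
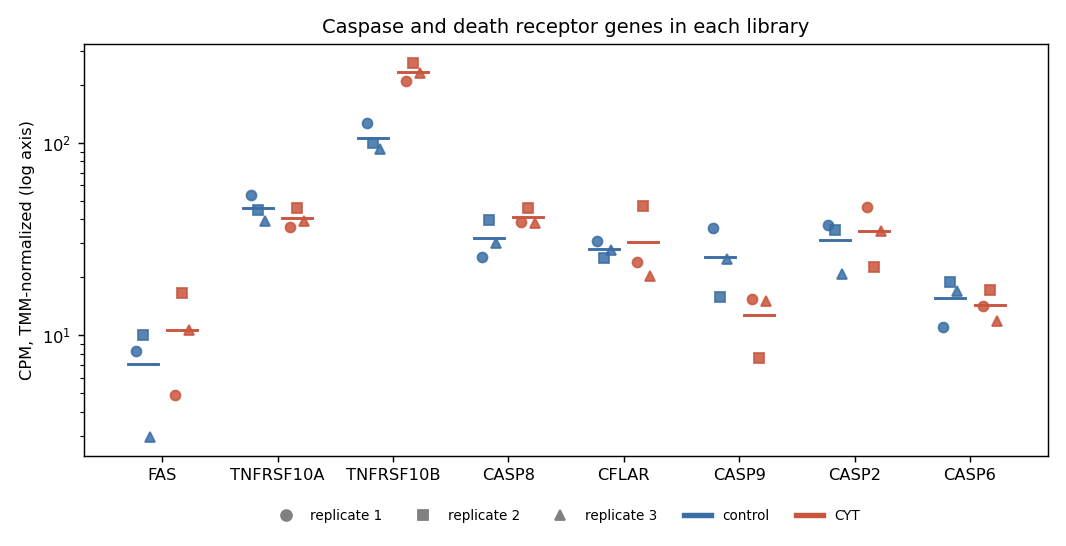
Each point is 1 library's CPM (TMM-normalized, log axis) of 1 gene, with the marker shape giving the replicate number and the horizontal line the mean of the 3 libraries in control (blue) or CYT (red). The 3 CYT libraries of TNFRSF10B, at 209 to 261 CPM, lie above all controls, those of CASP9 lie below all controls, and the groups overlap in the other 6 genes.

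TNFRSF10B, also called DR5 or TRAIL-R2, carries a death domain and passes the TRAIL signal to FADD and caspase-8. The table gave it 2041, 1869 and 1285 counts in the control libraries, in the order of replicates 1, 2 and 3, against 2965, 3666 and 2915 in the CYT libraries. In CPM this was 106 ± 18.0 in control and 234 ± 26.0 in CYT (mean ± SD, n = 3 each). All 3 CYT libraries were higher than all 3 controls. TNFRSF10B thus had a log2 fold change of 1.14 with a standard error of 0.28 and an edgeR adjusted p of 0.0142, a rise of 2.2-fold with a 95% interval of 1.43 to 3.39. The rise was past the threshold in 13 of 14 alternative fits, and it was lost without control replicate 3, the lowest control library, where the log2 fold change was 1.02 and the edgeR adjusted p 0.0813. Its gene lies on the minus strand of chromosome 8 at chr8:23020133-23069179 (GRCh38), and 67 bp of its exons overlap RHOBTB2 on the other strand, whose log2 fold change was -0.19 (edgeR adjusted p = 0.781).

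TNFRSF10A, or DR4, the other TRAIL receptor with a death domain, did not pass the test. Counts of TNFRSF10A were 862, 837 and 542 in control and 519, 642 and 495 in CYT libraries, in replicate order. After normalization the groups overlapped, with 45.7 ± 7.3 CPM in control and 40.5 ± 4.67 CPM in CYT. Its log2 fold change was -0.17 with a 95% interval of -0.81 to 0.46 (edgeR adjusted p = 0.686), so a rise as large as that of TNFRSF10B lay outside the interval. On the opposite strand, AC100861.1 overlaps 266 bp of its exons and TNFRSF10A-AS1 224 bp. AC100861.1 had 37 to 97 counts per library (edgeR adjusted p = 0.472). TNFRSF10A-AS1 had 25 to 53 (edgeR adjusted p = 0.821). What their reads contribute to the TNFRSF10A counts was not tested. A ratio of 2 genes within a library does not depend on how the libraries are scaled. The ratio of TNFRSF10B to TNFRSF10A counts was 2.37, 2.23 and 2.37 in the control libraries against 5.71, 5.71 and 5.89 in the CYT libraries, which is 2.32 ± 0.0787 against 5.77 ± 0.102. The spread of this ratio among replicates was far smaller than its difference between the groups, a log2 difference of 1.31. A two-sided exact permutation test gave p = 0.1, the smallest that 3 against 3 libraries allow, and 0.2 after Benjamini-Hochberg adjustment over the 2 ratios tested.

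FAS, the receptor of the Fas ligand, had the lowest mean CPM of the 8 members in both groups and the largest standard error. Its counts were 133, 188 and 41 in control and 69, 232 and 134 in CYT libraries. The lowest value belonged to a control library and the highest to CYT replicate 2, and the remaining libraries were intermixed. With 7.07 ± 3.68 CPM in control and 10.7 ± 5.82 CPM in CYT, the log2 fold change was 0.59 with a standard error of 0.54 (edgeR adjusted p = 0.446). The same-numbered differences of log2 CPM were -0.76, 0.72 and 1.85 and so did not share a sign. FAS lies at chr10:88990582-89015785, and 380 bp of its exons, 8.94% of its exonic length, overlap ACTA2, smooth muscle actin, on the opposite strand. ACTA2 rose from 105, 98 and 92 counts to 591, 294 and 456, a log2 fold change of 2.43 (edgeR adjusted p = 0.00177). Whether the counting used strand is not given in the sources used here, and what reads of ACTA2 contribute to the FAS counts was not tested.

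The TRAIL receptor genes stand side by side on chromosome 8 in the order TNFRSF10B, TNFRSF10C, TNFRSF10D and TNFRSF10A. TNFRSF10C and TNFRSF10D are decoy receptors, which bind TRAIL without a complete death domain. TNFRSF10D rose from 729, 1006 and 630 counts in control to 5053, 10727 and 6000 in CYT libraries, a log2 fold change of 3.47 with a standard error of 0.36 (edgeR adjusted p = 0.00052). TNFRSF10C fell from 24, 26 and 28 counts to 2, 3 and 3 (edgeR adjusted p = 0.00423). Over summed counts, 78 against 8, control was 8.15 times CYT with a 95% counting interval of 3.94 to 19.5, which covers counting error only. The 4 neighbours therefore changed unequally, with TNFRSF10D and TNFRSF10B higher, TNFRSF10C lower and TNFRSF10A not past the test.

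The antisense gene AC107959.2 starts inside the 5′ end of TNFRSF10B, at chr8:23068229-23083619 on the plus strand, and shares 951 bp of gene span but no exonic base with it. It had 3, 2 and 2 counts in control and 287, 607 and 356 in CYT libraries. Over summed counts, 1250 against 7, CYT was 214 times control with a 95% counting interval of 103 to 532. All 3 of its CYT values exceeded its controls by far, and the highest was in CYT replicate 2, which also had the highest TNFRSF10B and TNFRSF10D counts. These exons are those of GENCODE release 29, and the annotation used for counting is not given in the sources used here.

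Among the summed counts of the 4 TRAIL receptor genes, TNFRSF10B took 55.8%, 50.0% and 51.7% in the control libraries, and 34.7%, 24.4% and 31.0% in the CYT libraries. TNFRSF10D took 24.1% ± 3.66 in control and 64.7% ± 6.14 in CYT. The share of TNFRSF10A was 22.6% ± 0.901 in control and 5.2% ± 0.906 in CYT (mean ± SD, n = 3). The share of TNFRSF10B was lower in all CYT libraries although its own level was higher, since TNFRSF10D counts grew more. The ratio of TNFRSF10D to TNFRSF10B counts was 0.357, 0.538 and 0.49 in control and 1.7, 2.93 and 2.06 in CYT libraries. This ratio was chosen after the values were seen and was given no test. Shares of raw counts favour longer transcripts and are not shares of molecules.

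**Figure D2:**
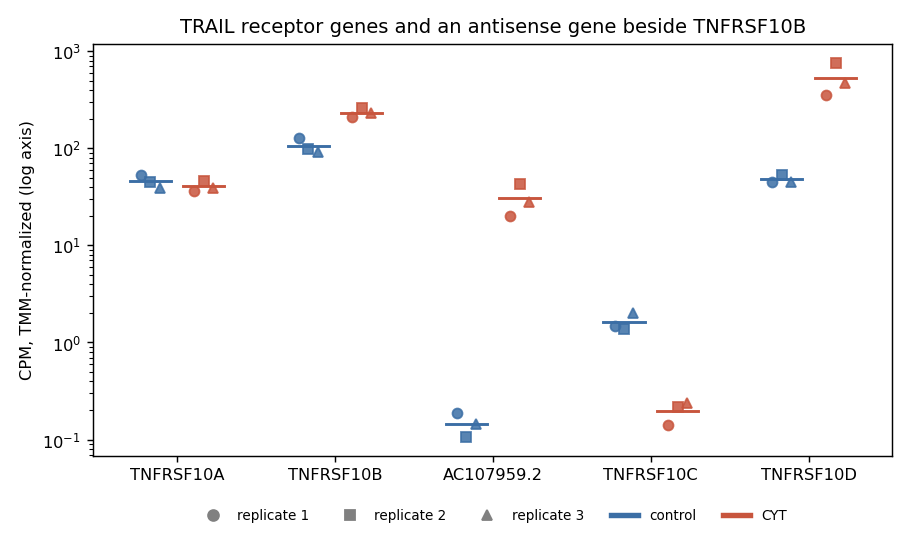
CPM (TMM-normalized, log axis) of the 4 TRAIL receptor genes and the antisense gene AC107959.2 in each library, with shapes for replicate numbers and lines for the means of the 3 control (blue) and 3 CYT (red) libraries. TNFRSF10B, AC107959.2 and TNFRSF10D are higher and TNFRSF10C lower in every CYT library than in every control, while the groups of TNFRSF10A overlap; points near 0.1 CPM stand for 2 or 3 reads.

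CASP8, the initiator caspase of the death receptor complex, did not pass the test. The CASP8 counts were 409, 747 and 421 in control and 547, 645 and 484 in CYT libraries. In CPM these were 25.4, 39.8 and 30.3 against 38.6, 45.9 and 38.5, and control replicate 2 lay among the CYT libraries. For CASP8 the log2 fold change was 0.37 with a 95% interval of -0.30 to 1.03 (edgeR adjusted p = 0.386). Each CYT library exceeded its same-numbered control, by 0.61, 0.21 and 0.35 on the log2 CPM scale, and with the replicate number as a block the edgeR adjusted p was 0.223.

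CFLAR encodes c-FLIP, which competes with caspase-8 for FADD and, depending on its form and amount, limits caspase-8 activation. Libraries had 498, 471 and 385 CFLAR counts in control and 342, 657 and 254 in CYT. The controls lay within 25.1 to 30.9 CPM, whereas the CYT libraries spread from 20.2 to 46.8 CPM, on both sides of the controls, with replicate 2 on its own at the top. CFLAR had a log2 fold change of 0.12 with a standard error of 0.37 (edgeR adjusted p = 0.83), and it changed sign to -0.33 without CYT replicate 2 (edgeR adjusted p = 0.337). The ratio of CASP8 to CFLAR counts was 0.821, 1.59 and 1.09 in control and 1.6, 0.982 and 1.91 in CYT libraries. These ratios overlapped between the groups, with a log2 difference of 0.36 (two-sided exact permutation p = 0.4, and 0.4 after Benjamini-Hochberg adjustment over the 2 ratios).

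CFLAR, CASP10 and CASP8 follow each other on the plus strand of chromosome 2. CASP10, a paralog of CASP8 that also joins death receptor complexes, had 126, 458 and 96 counts in control and 237, 540 and 392 in CYT libraries. Control replicate 2 again lay among the CYT values, as it did for CASP8. The log2 fold change of CASP10 was 1.14 with a standard error of 0.53 (edgeR adjusted p = 0.136), 1.29 with the replicate block (edgeR adjusted p = 0.0139), and 1.95 without control replicate 2 (edgeR adjusted p = 0.0163). CFLAR-AS1, an antisense gene within CFLAR that shares 777 exonic bp with it, had 0, 3 and 0 counts in control and 10, 27 and 12 in CYT libraries and was too low to be tested. The highest CFLAR-AS1 count was in CYT replicate 2, where CFLAR was highest too.

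CASP9, the initiator caspase of the apoptosome, was lower in all CYT libraries than in all controls but did not pass the test without the replicate block. Its counts were 584, 295 and 347 in control and 219, 107 and 190 in CYT libraries. The CPM values were 36.2, 15.7 and 24.9 in control and 15.4, 7.62 and 15.1 in CYT, so control replicate 2 lay only just above CYT replicate 1. The log2 fold change was -1.01 with a 95% interval of -1.94 to -0.08 and an edgeR adjusted p of 0.096. Same-numbered libraries differed by -1.23, -1.04 and -0.72 on the log2 CPM scale, all downward. With the replicate block the log2 fold change was -0.999 with a standard error of 0.26 (edgeR adjusted p = 0.0139), and CASP9 then passed as lower, while 39.9% of all tested genes passed in that fit. Over the 14 alternative fits the log2 fold change of CASP9 ranged from -1.27 to -0.63, and the block was the only one of them in which it passed. The gene lies at chr1:15490832-15526534 on the minus strand, and its exonic overlap with CELA2B on the other strand is 106 bp, where CELA2B had at most 1 count in any library.

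CASP2, the caspase of the PIDDosome, a complex assembled by PIDD1 and CRADD after DNA damage, did not pass the test. CASP2 counts were 604, 659 and 288 in control and 657, 318 and 441 in CYT libraries. The lowest value, 20.7 CPM, was in control replicate 3 and the highest, 46.3 CPM, in CYT replicate 1, so each group held an extreme, and the groups overlapped. Its log2 fold change was 0.16 with a standard error of 0.37 (edgeR adjusted p = 0.782). Its sign changed without CYT replicate 1, to -0.11, and without control replicate 3, to -0.09.

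CASP6, an executioner caspase that cuts nuclear lamins, had 177, 356 and 236 counts in control and 200, 241 and 149 in CYT libraries. With 15.6 ± 4.15 CPM in control and 14.4 ± 2.67 CPM in CYT, the difference between the means was smaller than either SD. For CASP6 the log2 fold change was -0.12 with a 95% interval of -0.87 to 0.63 (edgeR adjusted p = 0.817). Its sign depended on scaling and libraries, with a log2 fold change of 0.02 under upper-quartile normalization, 0.01 without CYT replicate 3 and 0.02 without control replicate 2. Of the CASP6 exons, 105 bp, 5.4% of the exonic length, overlap MCUB on the opposite strand. MCUB had 950, 1485 and 751 counts in control and 593, 916 and 611 in CYT libraries, more than CASP6 in each. What reads of MCUB contribute to the CASP6 counts was not tested.

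**Figure D3:**
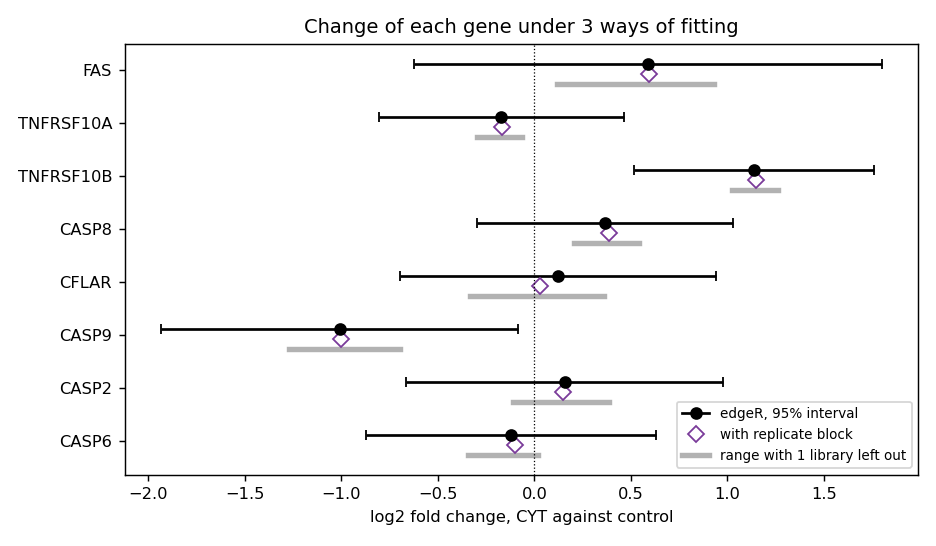
The log2 fold change of CYT against control for each gene, with the edgeR estimate and its 95% interval (black), the estimate with the replicate block (open diamond) and the range when 1 library is left out (grey bar). The interval of TNFRSF10B lies above 0 and that of CASP9 just below 0, before adjustment over genes, and the grey bars of CFLAR, CASP2 and CASP6 reach across 0.

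Several members, among them CASP2, CASP9, FAS, CFLAR and TNFRSF10B, are known to be spliced into forms with different actions. A count per gene adds these forms together, so the values say nothing of which form was made. Fewer cells with a transcript and less of it per cell cannot be told apart in RNA from whole cultures.

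Levels can be compared between genes only per length, here as the deposited FPKM (fragments scaled to a length per gene and to library size). In control the TRAIL receptors led, TNFRSF10B at 13 ± 1.62 FPKM and TNFRSF10A at 12.4 ± 1.6, and the ranges of these neighbours overlapped. CASP6 (3.03 FPKM), CASP9 (2.69), CASP8 (2.61) and CASP2 (2.14) followed, each overlapping its neighbour in the order. CFLAR at 0.906 ± 0.0362 FPKM and FAS at 0.53 ± 0.29 came last, each below the range of the gene before it. In CYT, TNFRSF10B at 29.2 ± 4.81 FPKM stood clear of TNFRSF10A at 11.3 ± 1.96. CASP9 in CYT was at 1.36 ± 0.419 FPKM, below the range of CASP2 and overlapping that of CFLAR. Its difference between the groups did not pass the test without the replicate block (edgeR adjusted p = 0.096). The caspase order in CYT was CASP8 (3.39 FPKM), CASP6 (2.82), CASP2 (2.4) and CASP9, with overlap between the neighbours among the first 3. The lengths implied by the deposited FPKM exceed the exonic lengths of GENCODE release 29 for all 8 genes, and unevenly. For TNFRSF10A they were 3.63 against 2.95 kb and for FAS 13.3 against 4.25 kb, so the order between genes depends on the length used. With those exonic lengths instead, the mean of FAS at 1.66 ± 0.909 was above that of CFLAR at 1.22 ± 0.0488 in control with overlapping ranges, CASP6 at 7.5 ± 1.9 came before CASP8 at 5.72 ± 0.974 in CYT, also with overlap, and in control TNFRSF10B at 20.3 ± 2.53 no longer overlapped TNFRSF10A at 15.3 ± 1.97.

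The rest of the pathway was read from 7 lists with 61 genes in all, of which 48 were tested, 4 rose and 10 fell, with a median log2 fold change of -0.39. The share called was 29.2%, against 28.6% of all tested genes. The counts depended on single libraries. They were 2 higher and 3 lower without control replicate 1, 2 and 4 without control replicate 3, and the lower calls were 5 without CYT replicate 1 and 6 without CYT replicate 3. With the replicate block 6 rose and 16 fell, 45.8% against 39.9% of all tested genes. CYLD, TNFRSF10D, TNFRSF10C, TNFRSF21 and DFFA passed in every alternative fit that could be made for them, and the other called genes lost their call in at least 2 such fits while keeping their sign.

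**Figure D4:**
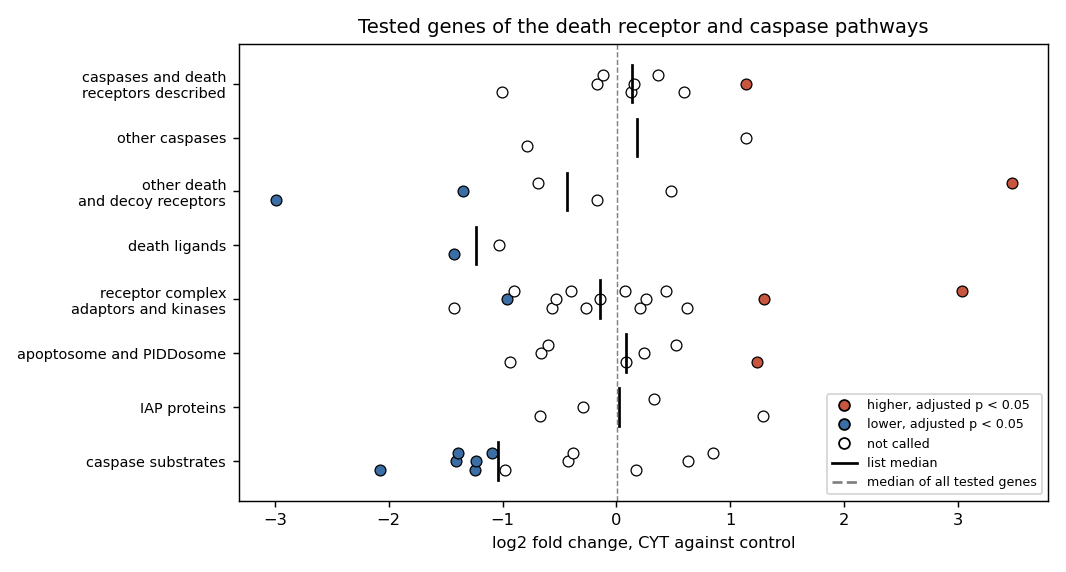
The log2 fold change of CYT against control for every tested gene of the 8 described here and of the 7 pathway lists, filled red where higher and blue where lower at an edgeR adjusted p under 0.05, with a vertical bar at each list's median and a dashed line at the median of all tested genes (0.0064). The substrate list, which also holds the nuclease DFFB, has 6 of its 12 genes among the 10 that fell (12.9% of all tested genes fell) and a median of -1.04, and TNFRSF10D and CYLD are the points above 3.

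Of the 6 genes on the list of other caspases, 2 were tested and none passed in edgeR, where 0 had an unadjusted p under 0.05 and DESeq2 called 0. These were CASP10, described above, and the inflammatory caspase CASP4, which had a log2 fold change of -0.78 (edgeR adjusted p = 0.142). CASP1, with 7, 23 and 13 counts in control and 0, 0 and 4 in CYT libraries, was too low to be tested over all 6 libraries. It entered only the fit without CYT replicate 3, where both remaining CYT libraries were at 0 and control counts alone took it past the filter. The lower call there followed from leaving out the CYT library that had counts, and it is not read as a result. CASP5, CASP12 and CASP14 had no counts.

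Among the 9 other death and decoy receptor genes, 6 were tested, with TNFRSF10D higher and TNFRSF21 and TNFRSF10C lower. TNFRSF21, the death receptor DR6, fell from 2094, 2507 and 1636 counts to 875, 574 and 591, a log2 fold change of -1.35 with a standard error of 0.29 (edgeR adjusted p = 0.00801). All of its CYT libraries were below all controls. TNFRSF1A, the main TNF receptor, had a log2 fold change of -0.69 (edgeR adjusted p = 0.15, and 0.041 with the replicate block), and TNFRSF25, or DR3, one of 0.48 (edgeR adjusted p = 0.512). NGFR, EDAR and TNFRSF6B were not tested.

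Of the 6 ligand genes, 4 had too few counts to be tested. FASLG, the ligand of FAS, had 0 counts in all 6 libraries, and TNFSF10, which encodes TRAIL, had 5, 0 and 4 counts in control and 8, 9 and 3 in CYT libraries. TNF and LTA had at most 9 counts. At this depth a fall or a small rise in these 4 ligands was not detectable. Of the 2 tested ligands, TNFSF12, or TWEAK, fell from 164, 145 and 147 counts to 60, 21 and 61 with a log2 fold change of -1.43 (edgeR adjusted p = 0.0426). It passed in 7 of 14 alternative fits, and of those that leave out 1 library only in that without CYT replicate 2, with edgeR adjusted p up to 0.115. TNFSF15 had a log2 fold change of -1.03 (edgeR adjusted p = 0.175, and 0.0405 with the replicate block).

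Of the 16 adaptor and kinase genes of the receptor complexes, 15 were tested, 2 rose and 1 fell. The lower calls were 3 with DESeq2, with the replicate block and without CYT replicate 2, and 0 without any other library. CYLD, a deubiquitinase that trims ubiquitin chains from RIPK1 and that caspase-8 can cut, rose from 480, 907 and 440 counts to 3176, 6489 and 2712. This log2 fold change of 3.04 with a standard error of 0.41 (edgeR adjusted p = 0.00119) was far outside the spread of either group. TNFAIP3, the ubiquitin editor A20, rose with a log2 fold change of 1.3 (edgeR adjusted p = 0.0129, but 0.0537 without control replicate 1 and 0.0678 without control replicate 3). MLKL, which breaches the membrane in necroptosis, fell with one of -0.96 (edgeR adjusted p = 0.036) but passed in only 4 of 14 alternative fits, and of those that leave out 1 library only in that without CYT replicate 2. RIPK3, the kinase that activates MLKL, had at most 3 counts and was not tested. FADD had 3700, 3544 and 2713 counts in control and 1902, 956 and 1579 in CYT libraries, without overlap in CPM, and a log2 fold change of -0.90 (edgeR adjusted p = 0.0643, and 0.0186 with the replicate block, with DESeq2 at 0.0481 and limma at 0.0414 to 0.0416). RBCK1, a subunit of the linear ubiquitin ligase, had one of 0.62 (edgeR adjusted p = 0.195, and 0.0177 without CYT replicate 2). BIRC3, the inhibitor of apoptosis cIAP2, had a log2 fold change of -1.42 (edgeR adjusted p = 0.109), with -1.77 under the replicate block (edgeR adjusted p = 0.00743), -1.46 in DESeq2 (adjusted p = 0.0448) and -2.62 without CYT replicate 2 (edgeR adjusted p = 0.00199). CUL3, a ubiquitin ligase scaffold, had a log2 fold change of -0.53 with overlapping groups (edgeR adjusted p = 0.248, and 0.105 with the replicate block). It was called lower only without CYT replicate 2 (log2 fold change -0.80, edgeR adjusted p = 0.0466).

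All 7 genes of the apoptosome and PIDDosome list were tested, and 1 rose. CYCS, cytochrome c, rose from 2842, 6503 and 3126 counts to 5633, 11719 and 6662 with a log2 fold change of 1.24 (edgeR adjusted p = 0.034), and it did not pass without CYT replicate 2, CYT replicate 3, control replicate 1 or control replicate 3, where the edgeR adjusted p was 0.0646 to 0.121. APAF1, which binds both cytochrome c and caspase-9, had 208, 606 and 185 counts in control and 340, 628 and 192 in CYT libraries and a log2 fold change of 0.52 (edgeR adjusted p = 0.46). Its groups overlapped, and its 95% interval of -0.58 to 1.62 held the value of CYCS. DIABLO, a mitochondrial protein that releases caspases from IAP inhibitors, had a log2 fold change of -0.93 (edgeR adjusted p = 0.0538, 0.0256 with the replicate block and 0.0476 without control replicate 2, with DESeq2 at 0.0344), and HTRA2, a mitochondrial protease of like action, one of 0.24 (edgeR adjusted p = 0.587).

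None of the 4 tested genes of the IAP list, which encode inhibitors of caspases and leave out BIRC2 and BIRC3 of the adaptor list, passed in edgeR, where 0 also had an unadjusted p under 0.05, and DESeq2 and limma called 0. Without CYT replicate 3, edgeR called XIAP higher, with a log2 fold change of 1.79 and an adjusted p of 0.0457. XIAP, the direct inhibitor of caspase-9, had 130, 211 and 304 counts in control and 391, 935 and 78 in CYT libraries. The CYT libraries lay on both sides of the controls, and the log2 fold change was 1.29 with a standard error of 0.71 (edgeR adjusted p = 0.202). BIRC5, survivin, had a log2 fold change of -0.67 (edgeR adjusted p = 0.231) and BIRC6 one of 0.33 (edgeR adjusted p = 0.468). BIRC7 was not tested.

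All 12 genes of the caspase substrate list were tested, and 6 fell and none rose in edgeR, where 12.9% of all tested genes fell. At an unadjusted p under 0.05 the counts were 7 lower and 1 higher, and DESeq2 called 6 lower and 0 higher. The lower calls were 1 without control replicate 1, 2 without control replicate 3 and 3 without CYT replicate 1 or CYT replicate 3. GSDME, a pore-forming protein that caspases cut, was called higher under upper-quartile normalization, with the replicate block and without CYT replicate 3, with a log2 fold change of 0.81 to 1.11 (edgeR adjusted p = 0.0337 to 0.0494) against 0.85 (edgeR adjusted p = 0.0881). DFFA, the inhibitor that caspases cut to free the DNA-cutting nuclease, fell from 3161, 2580 and 2041 counts to 951, 768 and 765 with a log2 fold change of -1.40 (edgeR adjusted p = 0.00661). DFFB, that nuclease and not itself known for being cut, fell with a log2 fold change of -2.08 (edgeR adjusted p = 0.0191). GSDMD, a pore-forming protein cut by inflammatory caspases, fell with one of -1.41 (edgeR adjusted p = 0.0293). ACIN1, which acts in chromatin condensation and RNA splicing, fell with one of -1.24 (edgeR adjusted p = 0.0196). DFFA passed in all 14 alternative fits, whereas DFFB, GSDMD and ACIN1 did not pass without control replicate 1 or without control replicate 3, where their edgeR adjusted p was 0.064 to 0.0931, nor without 1 or more of the other libraries, DFFB and GSDMD without CYT replicate 1, GSDMD without control replicate 2 and ACIN1 without CYT replicate 3. LMNA, the lamin cut by caspase-6, had a log2 fold change of -0.98 (edgeR adjusted p = 0.114, and 0.00986 with the replicate block), and PARP1, a DNA repair enzyme, one of -0.42 (edgeR adjusted p = 0.271).

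The genes whose pattern was most like that of each member were taken by Pearson's r of log2 CPM over the 6 libraries, among 11417 tested genes with a mean of at least 5 CPM. These are descriptions over 6 libraries that share group, scaling and depth. For TNFRSF10B they were ANXA5 (r = 0.998) and TCTN3, for CASP9 TCF25 (r = 0.998) and CHAF1A, for CASP8 NDUFC1 (r = 0.993) and LONRF1, and for FAS MIA3 and ZNF827 (r = 0.971 for both). For CFLAR they were TMEM107 (r = 0.986) and KCTD18, for CASP2 PKD1P1 (r = 0.981) and B3GNT3, for CASP6 TCEA1 (r = 0.982) and PUDP, and for TNFRSF10A CLN8 (r = 0.973) and MTMR4. No gene was near to more than 1 member by this rule, and ANXA5 alone among these genes passed the test, with a log2 fold change of 0.81 (edgeR adjusted p = 0.0415). ANXA5 passed in 8 of 14 alternative fits, and of those that leave out 1 library only in that without CYT replicate 2.

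The label of the cells was checked against their markers. VIM, CD44, KRT18 and EGFR, which MDA-MB-231 cells express, had at least 13.6 CPM in every library, and the receptor genes ESR1 and PGR had at most 4 counts. EGFR and VIM fell with CYT, with log2 fold changes of -2.65 (edgeR adjusted p = 0.00186) and -1.3 (edgeR adjusted p = 0.00535), and KRT18 had one of -1.02 (edgeR adjusted p = 0.0549, and 0.0193 with the replicate block). EPCAM and CDH1 had at most 16 counts. ERBB2, which encodes HER2 and is low in this line, was at 16.8 to 82.3 CPM, with a log2 fold change of -0.84 (edgeR adjusted p = 0.19, and 0.0234 with the replicate block). Of the 6 markers of other cell types, CD3E was at 0 throughout, PTPRC had at most 7 counts, and ALB went from 0 counts in control to 12, 14 and 9 in CYT. PECAM1, CD68 and COL1A1 were between 0.636 and 23.4 CPM, and COL1A1 fell with a log2 fold change of -2.16 (edgeR adjusted p = 0.00264). Summed over these 6 markers, the level was 21.9 to 44.2 CPM in control and 8.9 to 20.7 CPM in CYT libraries. Their part in the values of the members was not tested.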

How the data were processed

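RNA from 3 control and 3 CYT-treated MDA-MB-231-DR libraries was sequenced, and groups and replicate numbers were taken from the sample labels. Per the study's methods, the authors aligned reads with Hisat2 and used Stringtie for expression values, and the submitters' processing notes name hg38 and FastQC 0.12.1. The counting program, its use of strand and its annotation are not given in the sources used here. The authors deposited raw counts per gene and FPKM values in 1 table, and 0 of its value columns were left unassigned.

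Counts were scaled with TMM, filtered with filterByExpr (minimum count 10) and tested with the quasi-likelihood test of edgeR 4.0.16 in R 4.3.3, adjusted by the Benjamini-Hochberg method over 15572 genes, with a call at an adjusted p under 0.05. Standard errors were computed from the log2 fold change and F. The deposited FPKM served for levels per length. Loci, overlaps and sequences were read from GENCODE release 29, whose loci equal those in the table for all 8 genes. The script was tested on simulated data. Ratios of genes with 3 or fewer counts per library in a group carry exact binomial (Clopper-Pearson) intervals of counting error.

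Alternatives were DESeq2 1.42.0, upper-quartile or DESeq2 size factor scaling in edgeR, testing without the filter or with genes averaging 5 CPM or more, limma 3.58.1 on FPKM values taken as log2(FPKM + 1) or as log2(FPKM + 0.1), the replicate number as a block, a further criterion of a log2 fold change over 1, and leaving out each library. The use of exonic lengths was added after the data were seen. Members and lists were chosen with earlier results of these data known. Named are the 8 members, up to 4 called genes per list with the largest change, up to 2 uncalled genes with the highest mean CPM, untested list genes, genes beside or over a member, the 2 genes nearest in pattern to each member, and cell markers. APAF1, XIAP, GSDME, BIRC2, BIRC3 and CUL3 were named after their values were seen, and 2 genes of the lists are not reported here and enter no list count.

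Deviations from the group means were correlated across genes between libraries of 1 number, at 0.188 for replicate 1, 0.458 for replicate 2 and 0.124 for replicate 3. All exceed 0.1, the level taken for using the numbers as a block. Control 1 with CYT 3 (0.303) and control 3 with CYT 1 (0.201) were higher than same-numbered pairs 1 and 3. The check thus does not tell pairs 1 and 3 from their exchange, and the block rests on the labels' numbers. The methods name software for the counts without a pairing term for the sequencing, and a paired test in general for comparing groups, so the reported test has no block, and values with it stand beside results whose call it changes. Replicates differed by more than sampling noise (chi-square per gene 25.7 or more in every pair), so none was counted as a copy.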

Additional observations from a re-analysis of the deposited data

How the results depend on the processing

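Of 112 values of the members under alternatives, 104 kept their direction and side of the threshold. TNFRSF10B ranged from 1.02 to 1.27 on the log2 scale with 1 library left out and was not called without control replicate 3, where the number of members called higher was 0. The replicate block gave CASP9 a log2 fold change of -0.999 and a call, so that 1 member was lower, and it changed no other member's call. Signs reversed for CASP2 (-0.11 to 0.39 with 1 library left out), CFLAR (-0.33 to 0.36) and CASP6 (-0.34 to 0.0184, and 0.0218 under upper-quartile normalization, which moved the median of all genes from 0.0064 to 0.16). None of these 3 was called in any of the 14 fits. Over all genes, 2449 higher and 2002 lower calls became 3120 and 3089 with the replicate block and 1464 and 1395 at a mean of at least 5 CPM, where 11420 genes were tested, and lower calls ran from 1208 to 2750 with 1 library left out. In the pathway lists, the replicate block gave 6 higher and 16 lower calls, a mean of at least 5 CPM 6 lower, and leaving out 1 library from 2 to 5 higher and from 3 to 12 lower. The cause of these changes was not tested, other than fewer genes or libraries entering some fits. FAS, with 41 to 232 counts, had the largest standard error of the members (0.54).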
